A study of Mus musculus with 9 samples.

Results

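The Lyve1-type genes of resident macrophages are a list of 8 symbols, Lyve1, Timd4, Folr2, F13a1, Cbr2, Igf1, Vsig4 and Fcna, looked up by symbol in a table of 15434 genes. Rows were found for 5 of the 8, Folr2, F13a1, Cbr2, Igf1 and Fcna. No row was found for Lyve1, Timd4 or Vsig4 under these symbols or their RefSeq synonyms, and these 3 genes are not analysed here, so the list could not be checked against the gene it is named for. RNA sequencing libraries came from macrophages of testis (mouse number 1, 3 libraries), epididymis (mouse number 2, 3 libraries) and brain (mouse number 3, 3 libraries, titled microglia), all of untreated C57BL/6J mice whose age is not given in the labels. All cells were sorted, without culture, as live CD45+ CD11b+ F4/80+ cells that lacked Ly6C and CD11c. Each organ has 1 mouse number for its 3 libraries, so organ and mouse cannot be told apart, and p-values measure the spread between libraries, which may be technical. The protocol also says that suspensions of testes and epididymides were pooled, without giving the number of animals.

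Resident tissue macrophages are maintained in many organs with little input from blood monocytes, and a widely shared subset lies along vessels and carries Lyve1, Folr2, Timd4 and related genes, usually with low MHC class II. Lyve1 encodes a hyaluronan receptor, Timd4 a receptor for phosphatidylserine on dying cells, Folr2 a folate receptor and Vsig4 a complement receptor. F13a1 encodes the catalytic subunit of the clotting transglutaminase factor XIII, Cbr2 a carbonyl reductase, Igf1 insulin-like growth factor 1 and Fcna ficolin A, a soluble lectin of the complement lectin pathway. In the brain such genes are known from macrophages of the meninges and perivascular spaces rather than from parenchymal microglia, while in the testis macrophages lie in the interstitium beside Leydig cells and around the tubules.

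Depth ran from 2727092 to 4458688 assigned reads per library. Levels are given as normalised reads, that is reads divided by a factor for each library, on which scale a single read equals 0.808 to 1.11. All 9 pan-macrophage markers examined (Csf1r, Cd68, Fcgr1, Mertk, Cd14, C1qa, C1qb, C1qc and Lyz2) had reads in every organ. Their summed share was 45.0 to 53.7 of every 10000 reads in testis libraries, 80.1 to 81.4 in epididymis libraries and 109 to 115 in microglia libraries. The 9 microglia markers with a row summed to 2.66 to 4.37, 13.4 to 18.6 and 91.1 to 97.3 of every 10000 reads in the same order of organs. In sorted bulk samples, fewer cells of a kind and less RNA per cell cannot be told apart.

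The windows around the annotated starts of the 3 members that differed between organs are printed here to show where each lies and what precedes its start. RefSeq windows on GRCm38.p6, each 250 bases before to 50 after a start, were matched for 7 of the 8 members. Lyve1 had none. Capitals mark GAGGAA, the core of the site bound by PU.1, the ETS-family factor of the myeloid lineage, searched on both strands (TTCCTC on the other). F13a1 has an upstream and a downstream annotated start, and all sequences run 5′ to 3′ on the strand of the gene.
F13a1, chr13:37050195-37050494, minus strand: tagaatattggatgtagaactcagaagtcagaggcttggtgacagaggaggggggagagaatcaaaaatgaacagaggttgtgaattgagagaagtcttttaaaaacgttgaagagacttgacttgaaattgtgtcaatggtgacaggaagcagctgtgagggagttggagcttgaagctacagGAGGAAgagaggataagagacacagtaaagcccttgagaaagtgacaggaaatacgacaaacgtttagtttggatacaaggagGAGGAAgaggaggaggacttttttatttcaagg
F13a1, chr13:37049164-37049463, minus strand: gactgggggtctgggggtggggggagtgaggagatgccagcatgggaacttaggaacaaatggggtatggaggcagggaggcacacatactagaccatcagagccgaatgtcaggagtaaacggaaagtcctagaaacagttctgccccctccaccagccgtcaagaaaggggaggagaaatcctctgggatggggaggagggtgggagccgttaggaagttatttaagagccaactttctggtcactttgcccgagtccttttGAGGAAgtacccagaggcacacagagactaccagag
Cbr2, chr11:120731972-120732271, minus strand: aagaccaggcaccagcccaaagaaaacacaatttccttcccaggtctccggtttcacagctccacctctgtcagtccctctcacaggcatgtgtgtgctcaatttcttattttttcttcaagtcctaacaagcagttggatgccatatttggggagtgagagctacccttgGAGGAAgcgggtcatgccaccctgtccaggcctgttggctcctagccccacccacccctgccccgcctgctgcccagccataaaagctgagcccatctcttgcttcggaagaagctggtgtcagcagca
Igf1, chr10:87860861-87861160, plus strand: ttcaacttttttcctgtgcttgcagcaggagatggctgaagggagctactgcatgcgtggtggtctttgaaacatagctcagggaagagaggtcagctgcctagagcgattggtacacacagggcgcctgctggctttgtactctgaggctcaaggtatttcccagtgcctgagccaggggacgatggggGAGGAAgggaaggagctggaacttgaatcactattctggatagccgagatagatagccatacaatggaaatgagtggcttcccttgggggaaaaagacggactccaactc
Of the 9 windows of the members, 6 held GAGGAA or its complement, against 28.3% of 32851 windows of this length over all genes. Each window printed held it at least once, as did those of Fcna, which was not tested, and Vsig4, which had no row. The 2 windows of Folr2 and that of Timd4 did not. The match is a description of letters, not of binding.

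Igf1 was read in all 9 libraries and differed least of the members read in every library of testis (3.01 times between lowest and highest) and of epididymis (1.34 times). It is secreted by many tissue macrophages and also by Leydig cells. In testis its level was 437, 191 and 574 normalised reads in replicates 1, 2 and 3, in epididymis 348, 287 and 384, and in microglia 5.46, 20.1 and 29.3. Every testis and every epididymis library lay above every microglia library, and the testis values enclosed those of epididymis. Igf1 was higher in testis than in microglia (log2 fold 4.50 on the log2(value + 1) scale, SE 0.62, limma adjusted p = 0.00015). Epididymis exceeded microglia as well (log2 fold 4.40, SE 0.62, limma adjusted p = 0.00057), a comparison that shares its microglia libraries with the first. Between testis and epididymis the log2 fold was 0.11, with a 95% interval of -1.21 to 1.43 (limma adjusted p = 0.96), which leaves room for a difference in either direction. On GRCm38 the gene lies on chromosome 10 from 87858265 to 87937042.

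F13a1 differed 8.71 times between the lowest and highest testis library and 32.2 times between those of epididymis. Its product cross-links fibrin and matrix, and the gene is expressed by macrophages, monocytes and megakaryocytes. Levels were 417, 96.1 and 837 normalised reads in testis replicates 1, 2 and 3, 31.8, 243 and 7.55 in epididymis, and 0, 40.1 and 0 in microglia. The testis libraries all lay above the microglia libraries, but the highest epididymis library lay above the lowest testis library, and 86.1% of the epididymis sum came from replicate 2. F13a1 was higher in testis than in microglia (log2 fold 6.55, SE 1.59, limma adjusted p = 0.013). The log2 fold was 5.07 by edgeR and 4.99 with a pseudocount of 5, and 8.34 without microglia replicate 2, the only microglia library with reads of it. That call was lost when the variance was fitted with no trend on level (adjusted p = 0.073), in DESeq2 on the recovered reads (0.095), and without testis replicate 1 (0.062), testis replicate 3 (0.086), microglia replicate 1 (0.055) or microglia replicate 3 (0.0501), within a range of 0.0035 to 0.095 over all alternatives. Epididymis over microglia (log2 fold 3.57, 95% interval 0.19 to 6.94, limma adjusted p = 0.27) and testis over epididymis (log2 fold 2.99, 95% interval -0.39 to 6.36, limma adjusted p = 0.35) did not pass. The gene lies on chromosome 13 from 36867178 to 37050244, where an exon overlaps Gm30489 on the opposite strand, and the library kit does not mark the strand.

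Cbr2 was read almost only in testis. Its level was 209, 46.0 and 315 normalised reads in testis replicates 1, 2 and 3 and 30.0, 0 and 0 in epididymis, with no read in any microglia library. The 3 testis libraries lay above all other libraries, and without them the gene would not have reached the minimum for testing given below. Against a floor of 3 reads per library, which covers counting error only, the testis mean was at least 65.2-fold higher than in microglia. That bound leaves out the spread between libraries and was not tested. Limma gave testis over microglia a log2 fold of 7.19 (SE 1.65, 95% interval 3.68 to 10.7, adjusted p = 0.0093). Testis over epididymis gave a log2 fold of 5.54 (SE 1.65, 95% interval 2.03 to 9.05), which did not pass (limma adjusted p = 0.076). All 33 epididymis reads came from replicate 1, and without that library the log2 fold was 7.19 with an adjusted p of 0.025. With a pseudocount of 5 the log2 fold was 3.99 and the adjusted p 0.033, over all alternatives it ran from 0.025 to 0.53, and edgeR (log2 fold 4.21, adjusted p = 0.23) and DESeq2 (4.25, 0.53) on the recovered reads did not call it. The gene lies on chromosome 11 from 120729489 to 120732114, and no exon of it overlaps another gene.

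Folr2 and Fcna rested on few reads in few libraries. Folr2 stood at 0, 17.0 and 15.4 normalised reads in testis, 0, 0 and 38.8 in epididymis and 0, 0 and 0.889 in microglia. Those levels rest on 39 reads in testis, 36 in epididymis and 1 in microglia, and libraries of the same organ disagreed on whether it was read at all. The ratio of read rates to microglia was 36.1 in testis (exact 95% interval 6.10 to 1461) and 36.3 in epididymis (exact 95% interval 6.11 to 1473), intervals that cover counting error only. Neither passed limma's test (adjusted p = 0.42 and 0.74), and testis over epididymis had a log2 fold of 0.96 with a 95% interval of -2.56 to 4.49 (limma adjusted p = 0.82). The means (10.8 ± 9.37 for testis, 12.9 ± 22.4 for epididymis) have the opposite order, as has the edgeR log2 fold of -0.22, so no direction is given. Folr2 lies on chromosome 7 from 101839988 to 101857194 with an exon overlapping Gm10602 on the opposite strand.

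Fcna stood at 64.2, 0.808 and 0 normalised reads in testis replicates 1, 2 and 3, with no read in epididymis or microglia, where a count of 0 allows a mean of up to 2.93 and 2.91 normalised reads. Of its 63 reads, 62 came from testis replicate 1. Fcna was under the minimum for testing, and without testis replicate 1 a single read remained, which is under the floor of 3 reads. It lies on chromosome 2 from 25624666 to 25628030 and overlaps the antisense gene Fcnaos, from which its reads cannot be told apart here.

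**Figure D1:**
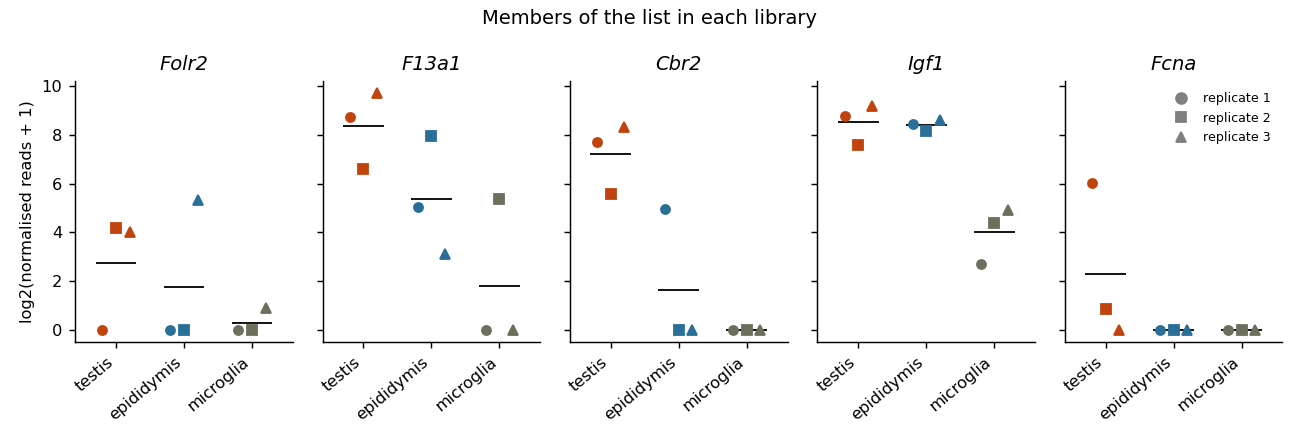
Level of the 5 members in each library as log2(normalised reads + 1) on the vertical axis, by organ on the horizontal axis, with 1 symbol per replicate and a bar at the mean of 3. Igf1 stands high in all 6 testis and epididymis libraries, while F13a1, Cbr2, Folr2 and Fcna scatter between libraries of the same organ, with Fcna at 62 reads in testis replicate 1 and 1 read in replicate 2.

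Genes were tested in a table-wide fit where a value of at least 10 was reached in at least 3 libraries, which 4 of the 5 members with a row did. In testis over epididymis limma called none of the 4, against 4.39% of the 11766 genes tested (2.49% higher and 1.9% lower), 1 had an unadjusted p below 0.05, and edgeR and DESeq2 on the recovered reads also called none. In testis over microglia F13a1, Cbr2 and Igf1 were called higher, 3 of 4, against 6.82% of all genes higher and 4.83% lower (11.7% in all), with 3 by edgeR and 2 by DESeq2. In epididymis over microglia 1 of 4, Igf1, was called higher, against 2.99% of all genes higher and 1.8% lower (4.79% in all), with 1 by edgeR and 1 by DESeq2. The libraries of the organs did not overlap for Cbr2 in testis over epididymis, where 11.0% of all genes lay wholly higher and 8.8% wholly lower. They did not overlap for F13a1, Cbr2 and Igf1 in testis over microglia (15.9% of all genes wholly higher and 14.9% lower) or for Igf1 in epididymis over microglia (10.5% and 11.5%). Cbr2 reached the minimum only with its testis libraries, the organ where it is high, so its call and its separation are not independent of that filter. These counts describe single genes and not the list. DESeq2 gave Folr2 no adjusted p in testis over epididymis or in epididymis over microglia.

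**Figure D2:**
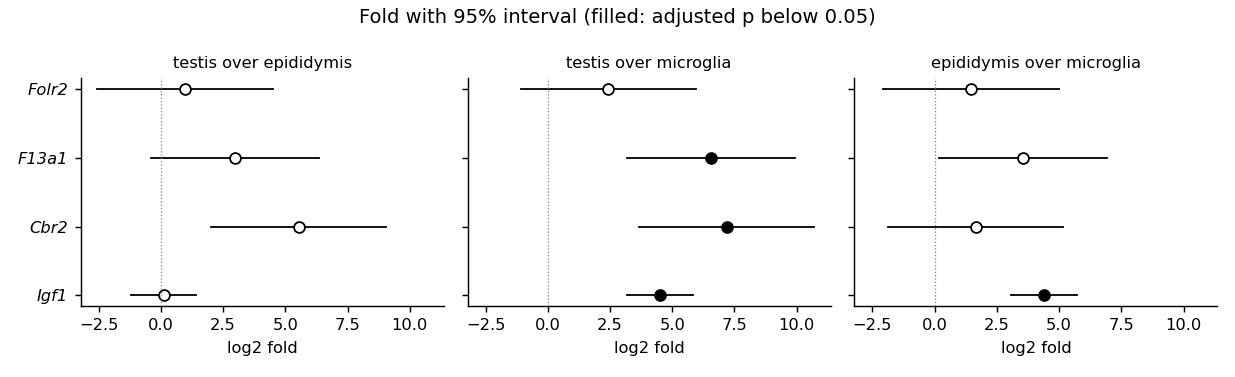
Log2 fold on the log2(normalised reads + 1) scale with its 95% interval from limma for the 4 tested members, in 3 comparisons. Filled points passed an adjusted p below 0.05, namely F13a1, Cbr2 and Igf1 in testis over microglia and Igf1 in epididymis over microglia, and the interval of Igf1 is the narrowest in each panel.

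Per kilobase of exon, the order of levels differed by organ. In testis it ran Cbr2 (143 ± 102 normalised reads per kb, SD, n = 3), F13a1 (66.8 ± 55.1), Igf1 (40.4 ± 19.6), Fcna (15.8 ± 26.8) and Folr2 (6.98 ± 6.06). No neighbours in that order differed by more than the larger of their SDs. In epididymis Igf1 came first at 34.3 ± 4.94 per kb, before F13a1 at 14.0 ± 19.2, Folr2 at 8.37 ± 14.5 and Cbr2 at 7.54 ± 13.1, with Fcna not read. There the step between Igf1 and F13a1 was slightly larger than either SD and the others were not. In microglia F13a1 (1.98 ± 3.44 per kb) and Igf1 (1.85 ± 1.21) were about level, followed by Folr2 (0.192 ± 0.332), which lay below Igf1 by more than either SD.

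Within testis, Cbr2, F13a1 and Igf1 were each lowest in replicate 2 and highest in replicate 3, an order chosen for description after the values were seen. The highest testis library held 6.83 times the level of the lowest for Cbr2. The same order held in 11.7% of tested genes, and testis replicate 2 had the most reads of all libraries. Leydig cell markers moved in the same order. Their sum over 6 genes was 4.59, 3.55 and 8.94 of every 10000 reads in testis replicates 1, 2 and 3, against 0.0910 to 0.643 in epididymis and 0.249 to 0.336 in microglia. Insl3, the Leydig cell peptide hormone, averaged 1117 ± 740 normalised reads in testis, 0 in epididymis and 7.92 ± 5.56 in microglia (SD, n = 3 each). In all, 6 of 11 summed marker lists shared the order, those of lymphatic endothelium, platelets, fibroblasts, Leydig cells, microglia and macrophages. Monocyte markers did not, at 4.87, 4.34 and 3.83 of every 10000 reads in testis replicates 1, 2 and 3, nor did T and NK cell markers, at 3.50, 3.37 and 2.28. The sort took CD45+ cells, a gate that Leydig cells do not meet, and the part of other cells in the testis levels of Cbr2, F13a1 and Igf1 was not tested. In epididymis 4 of the 6 Leydig markers, Insl3, Cyp17a1, Hsd3b1 and Hsd3b6, had no read, while Cyp11a1 and Star did.

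**Figure D3:**
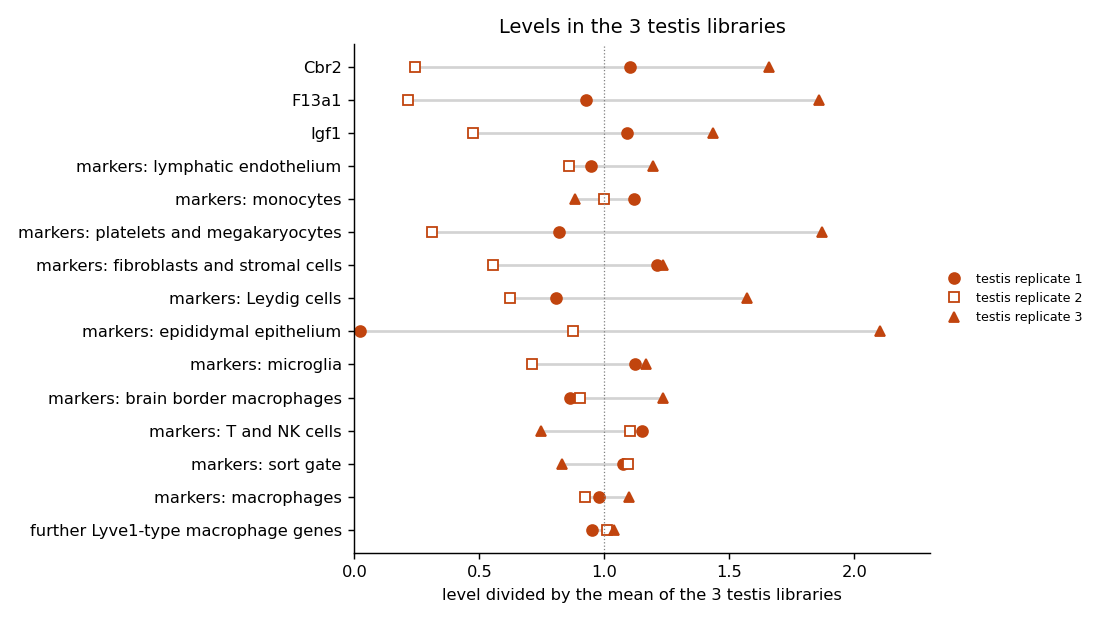
Level in each of the 3 testis libraries divided by their mean, for 3 members (normalised reads) and for summed marker lists and the further Lyve1-type genes (share of reads). Cbr2, F13a1 and Igf1 lie lowest in replicate 2 (open squares) and highest in replicate 3 (triangles), the Leydig markers do so too, and the further Lyve1-type genes lie close together.

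Markers of other cells that carry members were also counted. F13a1 is known from monocytes, whose 7 markers with a row summed to 3.83 to 4.87 of every 10000 reads in testis, 0.459 to 0.959 in epididymis and 0.483 to 0.818 in microglia. It is also known from megakaryocytes, whose 5 markers with a row summed to at most 0.175 in testis, 0.0539 in epididymis and 0.293 in microglia, with Gp9 and Itga2b unread in testis. In epididymis, where F13a1 was highest in replicate 2, the monocyte sum was 0.459, 0.959 and 0.880 in replicates 1, 2 and 3 and the fibroblast sum 0.152, 0.409 and 0.155. Summed markers of lymphatic endothelium, Leydig cells, T and NK cells and macrophages were also highest in that replicate. Those of platelets, epididymal epithelium, microglia, brain border macrophages and the sort gate were not. The sort excluded Ly6C+ cells, and Ly6c2, the gene of that marker on classical monocytes, stood at 101, 63.0 and 80.4 in testis replicates 1, 2 and 3. The part of other cells in the F13a1 levels was not tested. The 7 markers of brain border macrophages, of which Mrc1, Cd163 and Pf4 also stand among the further Lyve1-type genes, summed to 13.5 to 19.3 of every 10000 reads in testis, 27.7 to 31.2 in epididymis and 1.93 to 2.39 in microglia.

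A further 20 genes known from Lyve1-type macrophages were taken as context, of which 18 had a row and 14 were tested. Against microglia, the mannose receptor gene Mrc1 and the chemokine gene Pf4 were higher in both reproductive organs. Mrc1 stood at 2258 ± 368 in testis, 1631 ± 102 in epididymis and 64.1 ± 20.6 in microglia (log2 fold over microglia 5.16 in testis and 4.70 in epididymis, with adjusted p = 2.5e-08 and 5.6e-08 by limma). Pf4 stood at 985 ± 443, 498 ± 82.0 and 1.82 ± 3.16 in the same organs (log2 fold 8.96 and 8.05, limma adjusted p = 9.7e-07 and 8.0e-06). The list did not move as one. In testis over microglia 2 rose, 2 fell and 10 did not pass, against 11.7% of all tested genes called. The median log2 fold of the list there was 0.13, against -0.07 over all tested genes. In epididymis over microglia 2 rose and 12 did not pass, against 4.79% of all tested genes called, with a median of 0.35 against -0.13.

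The members of that list that fell in testis against microglia were Ltc4s and Maf. Ltc4s, the leukotriene C4 synthase gene, averaged 10.2 ± 15.6 in testis, against 319 ± 94.4 in microglia (log2 fold -6.07, SE 1.22, adjusted p = 0.0036 by limma). For Maf, a transcription factor gene of resident macrophages, the averages were 7830 ± 445 in testis and 11193 ± 910 in microglia, a log2 fold of -0.51 with an SE of 0.15 and an adjusted p of 0.043 by limma. The Maf call was lost in 10 of 19 alternatives, with no variance trend (adjusted p = 0.40), with only the 6 libraries compared (0.091) and without any 1 of the 3 testis libraries, the 3 microglia libraries or epididymis replicates 2 and 3 (0.056 to 0.12), while its log2 fold stayed below 0 in all 19. In testis over epididymis the median log2 fold of the list was 0.15, against 0.10 over all tested genes. There 1 fell and 13 did not pass, against 4.39% of all tested genes called. The gene that fell was Stab1, a scavenger receptor gene, with 396 ± 130 in testis against 1233 ± 157 in epididymis and a log2 fold of -1.68 (SE 0.27, adjusted p = 0.0018 by limma). It was not called without the variance trend. Cd163, the haptoglobin-haemoglobin receptor gene, stood at 66.3 ± 35.4 in testis, 9.87 ± 8.80 in epididymis and 1.81 ± 2.41 in microglia. Cd163 passed in no comparison by the main limma fit or by edgeR (adjusted p = 0.062 for testis over microglia by limma). It was called in testis over microglia in 5 of 19 alternatives (adjusted p = 0.015 to 0.21 over all 19). Those 5 were a pseudocount of 5, only the 6 libraries compared, quantile normalisation, no epididymis replicate 3 (0.033 by limma) and DESeq2 (0.015). The summed share of the 18 genes was 64.1 to 70.0 of every 10000 reads in testis. Every testis library lay below those of epididymis (73.6 to 75.7) and microglia (71.2 to 84.5). Abundant genes such as Maf weigh most in this sum, which does not show how single genes differed.

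**Figure D4:**
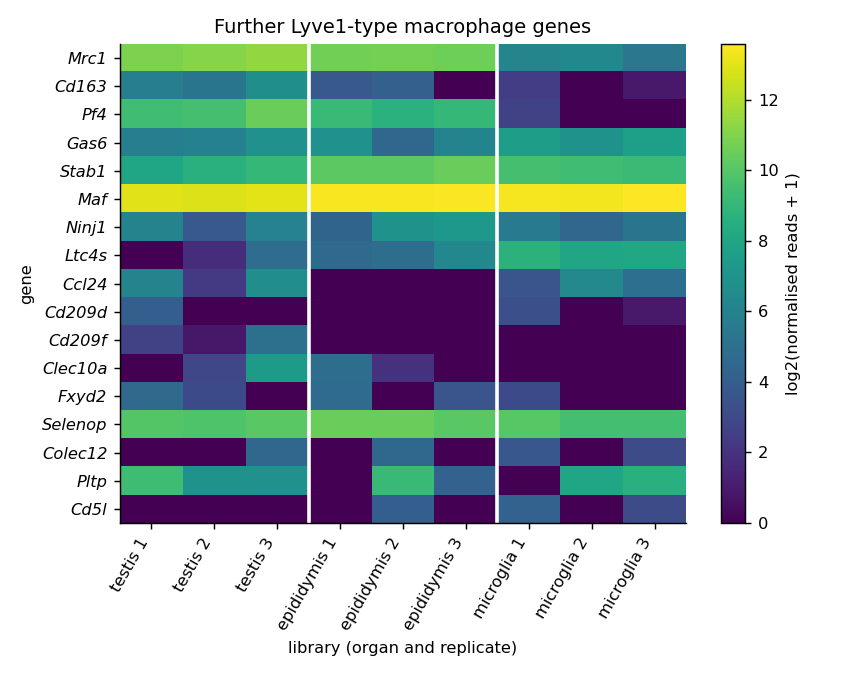
Level of further Lyve1-type macrophage genes in each library as log2(normalised reads + 1), shown by colour, with libraries of testis, epididymis and microglia from left to right. Mrc1 and Pf4 are brighter in the 6 testis and epididymis libraries than in microglia, Ltc4s is brightest in microglia, and Maf is high throughout.

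Genes around each member were counted from lists of their pathways. Of all 11766 tested genes, limma called 4.39% in testis over epididymis, 11.7% in testis over microglia and 4.79% in epididymis over microglia. These shares apply to each list below, and a count of 0 or 1 gene is not read as a result about its list. Of 11 tested genes of insulin-like growth factor signalling, 1 rose in testis over microglia, 1 in epididymis over microglia and none in testis over epididymis (by limma and edgeR, with 3 at an unadjusted p below 0.05, and 1 by DESeq2). The gene that rose was Igfbp4, an IGF-binding protein gene, at 852 ± 172 in testis, 886 ± 205 in epididymis and 326 ± 51.1 in microglia (adjusted p = 0.0028 and 0.0050 for the organs over microglia, by limma). Igf1r, the receptor of Igf1, stood at 401, 237 and 368 in testis, 140, 230 and 89.5 in epididymis and 294, 425 and 370 in microglia. It passed in no comparison, except in epididymis over microglia without epididymis replicate 2 (adjusted p = 0.039 by limma, against 0.072 with it).

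Of 5 tested transglutaminase and clotting genes, 2 fell in testis over epididymis and 2 in testis over microglia, and none was called in epididymis over microglia by limma, edgeR or DESeq2, with 0 at an unadjusted p below 0.05. Tgm2, the tissue transglutaminase gene, stood at 91.3 ± 19.8 in testis, 392 ± 72.9 in epididymis and 278 ± 102 in microglia (adjusted p = 0.0070 against epididymis and 0.020 against microglia, by limma). The call against microglia was lost with no variance trend and without testis replicate 2 or 3 or microglia replicate 1 or 3 (adjusted p = 0.057 to 0.10). F13b, which encodes the carrier subunit of factor XIII, had no row and is not analysed here.

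Of 6 tested relatives of Cbr2, carbonyl reductases and short-chain dehydrogenases, 1 rose in testis over microglia. That was Hsd17b10, a mitochondrial dehydrogenase gene, at 97.6 ± 23.1 in testis and 2.12 ± 2.93 in microglia (log2 fold 5.39, limma adjusted p = 0.017), a call lost without testis replicate 2 or 3 or microglia replicate 2 (0.052 to 0.063). None was called in testis over epididymis by limma, edgeR or DESeq2, with 0 at an unadjusted p below 0.05. In epididymis over microglia limma and edgeR called none and DESeq2 called 1, with 1 at an unadjusted p below 0.05. Cbr1, the general carbonyl reductase gene, stood at 81.8, 25.0 and 42.7 in testis, 52.7, 22.5 and 86.2 in epididymis and 27.3, 68.0 and 41.8 in microglia, where the organs overlapped.

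Of 10 tested genes of folate uptake and use, around Folr2, limma and edgeR called none in any of the 3 comparisons and DESeq2 called 1 in each. Unadjusted p was below 0.05 for 1 in testis over epididymis, 2 in testis over microglia and 1 in epididymis over microglia. The lectin pathway around Fcna had 2 tested genes, C4b and C2, and none was called by limma, edgeR or DESeq2 in any comparison, with 0 at an unadjusted p below 0.05. Fcnb, the ficolin of neutrophils and monocytes, had reads only in microglia replicate 1, and Masp2, a protease that binds ficolins, only in testis replicate 3.

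For the 3 genes without a row, only the genes around them could be described. Limma called 11.7% of all tested genes in testis over microglia, 4.79% in epididymis over microglia and 4.39% in testis over epididymis. Of 9 tested hyaluronan genes beside Lyve1, 1 rose in testis over microglia and 1 in epididymis over microglia, and limma, edgeR and DESeq2 called none in testis over epididymis, where 2 had an unadjusted p below 0.05. The gene that rose was Cd44, the main hyaluronan receptor gene of leukocytes, at 497 ± 53.0 in testis, 171 ± 70.5 in epididymis and 17.7 ± 17.4 in microglia (limma adjusted p = 0.00017 and 0.0079 against microglia). The epididymis call was lost with no variance trend (0.064), with only the 6 libraries compared (0.10) and without epididymis replicate 2 (0.05002). Of 11 tested genes for recognition of phosphatidylserine, as by Timd4, 2 rose and 3 fell in testis over microglia, 1 rose and 2 fell in epididymis over microglia, and 1 rose and 1 fell in testis over epididymis. Axl, a receptor kinase gene that acts in clearing dying cells, averaged 502 ± 167 in testis, 756 ± 66.6 in epididymis and 3.56 ± 5.40 in microglia, and its relative Mertk at 378 ± 149, 1168 ± 305 and 5231 ± 1202.

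Of 9 tested genes of complement receptors and regulators, as is Vsig4, 3 fell in testis over epididymis, against 4.39% of all genes called. In testis over microglia 2 fell (11.7% of all genes called), and in epididymis over microglia 2 rose and 1 fell (4.79%). Among the called genes was Itgax, which encodes CD11c, a marker that the sorted cells lacked. It was called lower in testis than in epididymis by limma, but not by edgeR or DESeq2. All 3 tools called it higher in epididymis than in microglia, where it had no read. C3ar1, the receptor gene for complement fragment C3a, stood at 635 ± 110 in testis, 1486 ± 243 in epididymis and 528 ± 98.7 in microglia (adjusted p = 0.0084 for testis over epididymis and 0.0017 for epididymis over microglia, by limma). MHC class II genes, usually low in Lyve1-type macrophages, were higher in both reproductive organs than in microglia. Of 9 tested MHC class II and monocyte-derived macrophage genes, 8 rose and 1 fell in testis over microglia and 7 rose and 1 fell in epididymis over microglia, with the class II chain gene H2-Aa at 14599 ± 1796 in testis, 4982 ± 894 in epididymis and 59.4 ± 13.2 in microglia.

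The tested genes most like each member were found by the mean absolute difference between log2 profiles over the 9 libraries, after each gene's own mean was removed. The nearest genes lie below the median difference by construction, so that median gives only the scale. Igf1 was closest to Dab2 (difference 0.34, against a median of 2.15 over tested genes) and Lilrb4a (0.51). Dab2 stood at 1993 in testis, 1073 in epididymis and 60.3 in microglia as organ means, and Lilrb4a at 1267, 895 and 38.4. Cbr2 was closest to Gstm2 (0.29, against a median of 3.30) and Agt (0.55), and Agt stood at 453, 116 and 645 in testis replicates 1, 2 and 3, at 20.0, 0 and 0 in epididymis and at 0 in microglia. F13a1 had no close match. Its nearest genes were Bcl11b (1.08, against a median of 2.98), a transcription factor gene of T cells, and Prm2 (1.11), a protamine gene of spermatids, with organ means of 380, 45.4 and 3.27 for Bcl11b and 282, 114 and 4.46 for Prm2 in testis, epididymis and microglia. Folr2 was closest to Aff3 (0.27, against a median of 2.09) and Tmem150b (0.34), all of them 0 in testis replicate 1 and read in epididymis replicate 3 but not in the other epididymis libraries. Between members the closest pairs were F13a1 with Igf1 and Folr2 with Igf1, both at a difference of 2.06. That is close to the medians over tested genes of Folr2 (2.09) and Igf1 (2.15), against 2.98 for F13a1.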

How the data were processed

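RNA was sequenced from sorted macrophages, 3 libraries per organ, with a Tru-Seq RNA kit per the labels' protocols, a kind that does not mark the strand. The authors deposited signal values, one per gene and library, which are reads scaled by a library factor, and CASAVA 1.8, Bowtie2 2.2.1, Partek 6.6, DESeq2 and mm10 are named per the submitters' processing notes, while the counting rule is not given in the sources used here. Multiples of the value of 1 read made up 100% of each library (off by at most 3.9e-10 reads), which gave back the whole reads.

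The limma fits used log2(value + 1). Genes reaching 10 in at least 3 libraries, 11766 in all, went into a limma fit (version 3.58.1, R 4.3.3) of all 9 libraries that had 1 mean per organ and let the variance follow the level. Benjamini-Hochberg adjustment was applied per comparison, and calls needed an adjusted p below 0.05. Fold changes on this scale compare means of logs: the pseudocount shrinks those of low genes, and a library at 0 can move them past the ratio of the means. Recovered reads were also tested with edgeR 4.0.16 and DESeq2 1.42.0. The limma and edgeR procedures, but not DESeq2, were also run on simulated data, whose outcome is not reported here. Coordinates are those of GENCODE M21 for GRCm38 (mm10). Its names matched 15252 of the 15434 row names.

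The members and lists were chosen with earlier results of these data known. Genes named beyond the members were mainly taken from the called genes of a list, not in each case those with the largest folds, then from those with the highest levels. The 2 tested genes closest to each tested member were also named. Fcnb, Masp2, Igf1r, Cbr1, Cd163 and Maf were named by role, after their values were seen. Some genes counted in the lists are not reported here by name. Replicates are numbered in accession order. Floors are 3 reads per library, and floors and 95% intervals of read ratios cover counting error only. Alternatives were other pseudocounts, filters, scalings and tools, and leaving out each library.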

Additional observations from a re-analysis of the deposited data

How the results depend on the processing

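Each tested member's fold was recomputed under 10 other settings and 9 leave-outs. Other filters, no variance trend, only the 6 libraries compared and leaving out a library of the third organ return the same fold. Under these only the adjusted p could change, so they do not test the direction of the fold. Of all 223 recomputed values 208 kept their direction and side of the threshold. Another 6 lost the call (all F13a1 in testis over microglia) and 2 gained it (Cbr2 in testis over epididymis). The other 7 changed or lost direction, none of them a called value. The 7 were Igf1 in testis over epididymis at -0.064 with libraries rescaled to the same total, -0.03 without testis replicate 1, -0.22 without testis replicate 3 and -0.01 without epididymis replicate 2 (-0.22 to 0.57 over the leave-outs), Folr2 at -0.22 by edgeR in testis over epididymis and at -0.31 in epididymis over microglia without epididymis replicate 3 (-0.31 to 2.35), and Cbr2 at 0 in epididymis over microglia without epididymis replicate 1 (0 to 2.48). The cause was not tested, except that the last drops the only epididymis library with Cbr2 reads.

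Members called higher in testis over epididymis numbered 0, with 1 at a pseudocount of 5 and 0 to 1 over the leave-outs. Genes called in testis over epididymis numbered 516, with 192 without the variance trend, 250 with only the 6 libraries compared, 789 by DESeq2 and 278 to 442 over the leave-outs (301 without testis replicate 2, 278 without epididymis replicate 2 and 293 without epididymis replicate 3). In testis over microglia they numbered 1371, with 837 without the variance trend and 827 to 1457 over the leave-outs (827 and 889 without microglia replicates 1 and 2), and in epididymis over microglia 564, with 306 without the trend, 917 by DESeq2 and 320 to 597 over the leave-outs (320 and 327 without microglia replicates 1 and 2). The settings for the further Lyve1-type genes were chosen after seeing the data. Of these genes, those higher in testis over epididymis numbered 0, with 1 without a filter on low values, 2 by DESeq2 and 0 to 1 over the leave-outs. Those lower there numbered 1, with 2 without the filter, 0 without the trend, 2 with rescaled totals, 2 with quantile normalisation, 2 by DESeq2 and 1 to 2 over the leave-outs. Those lower in testis over microglia numbered 2, with 1 without the trend, 1 with only the 6 libraries compared, 4 with quantile normalisation and 1 to 2 over the leave-outs. Those lower in epididymis over microglia numbered 0, with 1 with only the 6 libraries compared, 3 by DESeq2 and 0 to 1 over the leave-outs.

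Of the other named genes, Stab1, Mertk, C3ar1, H2-Aa and Tgm2 in testis over epididymis, Igfbp4 in both organs over microglia and C3ar1 in epididymis over microglia also lost their calls with no variance trend.

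Rescaling to the same total moved the median log2 fold of all genes to -0.29 in testis over microglia, against -0.07 as deposited, where the calls were 654 higher and 772 lower, against 803 and 568. It moved the median to -0.05 in testis over epididymis, against 0.10, where the calls were 227 higher and 307 lower, against 293 and 223 (211 and 249 with quantile normalisation). No paired analysis was possible because the labels give no number that links libraries of different organs.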
